A study of Mus musculus with 2 samples.

Results

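The genes described here are the heat shock proteins and their co-chaperones in mouse gastrocnemius, a large calf muscle built mostly of fast-contracting fibres. They were taken by symbol: the HSP70 and HSP110 genes, the HSP90 genes, the chaperonin genes Hspd1 and Hspe1, the small heat shock proteins with Cryab, the J-domain families DNAJA, DNAJB and DNAJC, and the BAG genes, each with at least 1 protein-coding transcript. This gave 79 members of 55536 annotated genes, 21901 of which have a protein-coding transcript. A further 3 matching symbols, the pseudogenes Dnaja1-ps, Dnajc19-ps and Hspa9-ps1, have no coding transcript, and none of them passed 6.14 counts in a library. Total RNA was measured in 2 libraries, replicate 1 and replicate 2, from male B6CASTF1/J mice aged 14 days, which are hybrids of C57BL/6J and CAST/EiJ. The input was 300 ng of RNA per library, and ERCC RNAs, a set of synthetic standards, had been mixed in. The labels name neither a treatment nor a second group, so the differences below are between the libraries and are written as replicate 1 minus replicate 2. The labels mention 3 males and give both libraries 1 donor identifier, so the spread between them may be technical, and the p-values describe these libraries and no wider population.

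Heat shock proteins bind unfolded or partly folded proteins and keep them from clumping. HSP70 proteins work in cycles of ATP binding and hydrolysis that J-domain proteins start and that BAG and HSP110 proteins reset by exchanging the nucleotide, HSP90 acts later on a set of client proteins, and small heat shock proteins hold unfolding proteins without using ATP. In muscle, small heat shock proteins sit at the sarcomere and bind desmin, filamin and titin, and many of the cytosolic members are switched on by heat shock factor 1 when proteins unfold.

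All 8 families were present. At least 1 TPM, a transcript level corrected for length and sequencing depth, was reached in both libraries by 70 of the 79 members, or 88.6%, against 49.4% of 21888 nuclear protein-coding genes. The median member stood at 10.6 TPM (19.2 TPM in a second deposited quantification, whose TPM were 1.35 times those of the first for the median coding gene), 8 members had means of at least 100 TPM, 33 lay between 10 and 100 TPM, and 29 lay between 1 and 10 TPM. Together the members held 0.685% of the nuclear coding TPM in replicate 1 and 0.755% in replicate 2. The first 10 members held 62.4 ± 2.34% (SD, n = 2) of the members' summed TPM. The order began with Hspa8, Cryab, Hsp90ab1, Hspb6, Hspb1, Hspa9, Hspb7, Hspb8, Bag6 and Hspa5. Among these 10, 4 of the 9 neighbouring pairs had overlapping values: Hspb1 and Hspa9, Hspa9 and Hspb7, Hspb7 and Hspb8, and Bag6 and Hspa5. Over the whole order 54 of 78 neighbouring pairs overlapped.

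**Figure D1:**
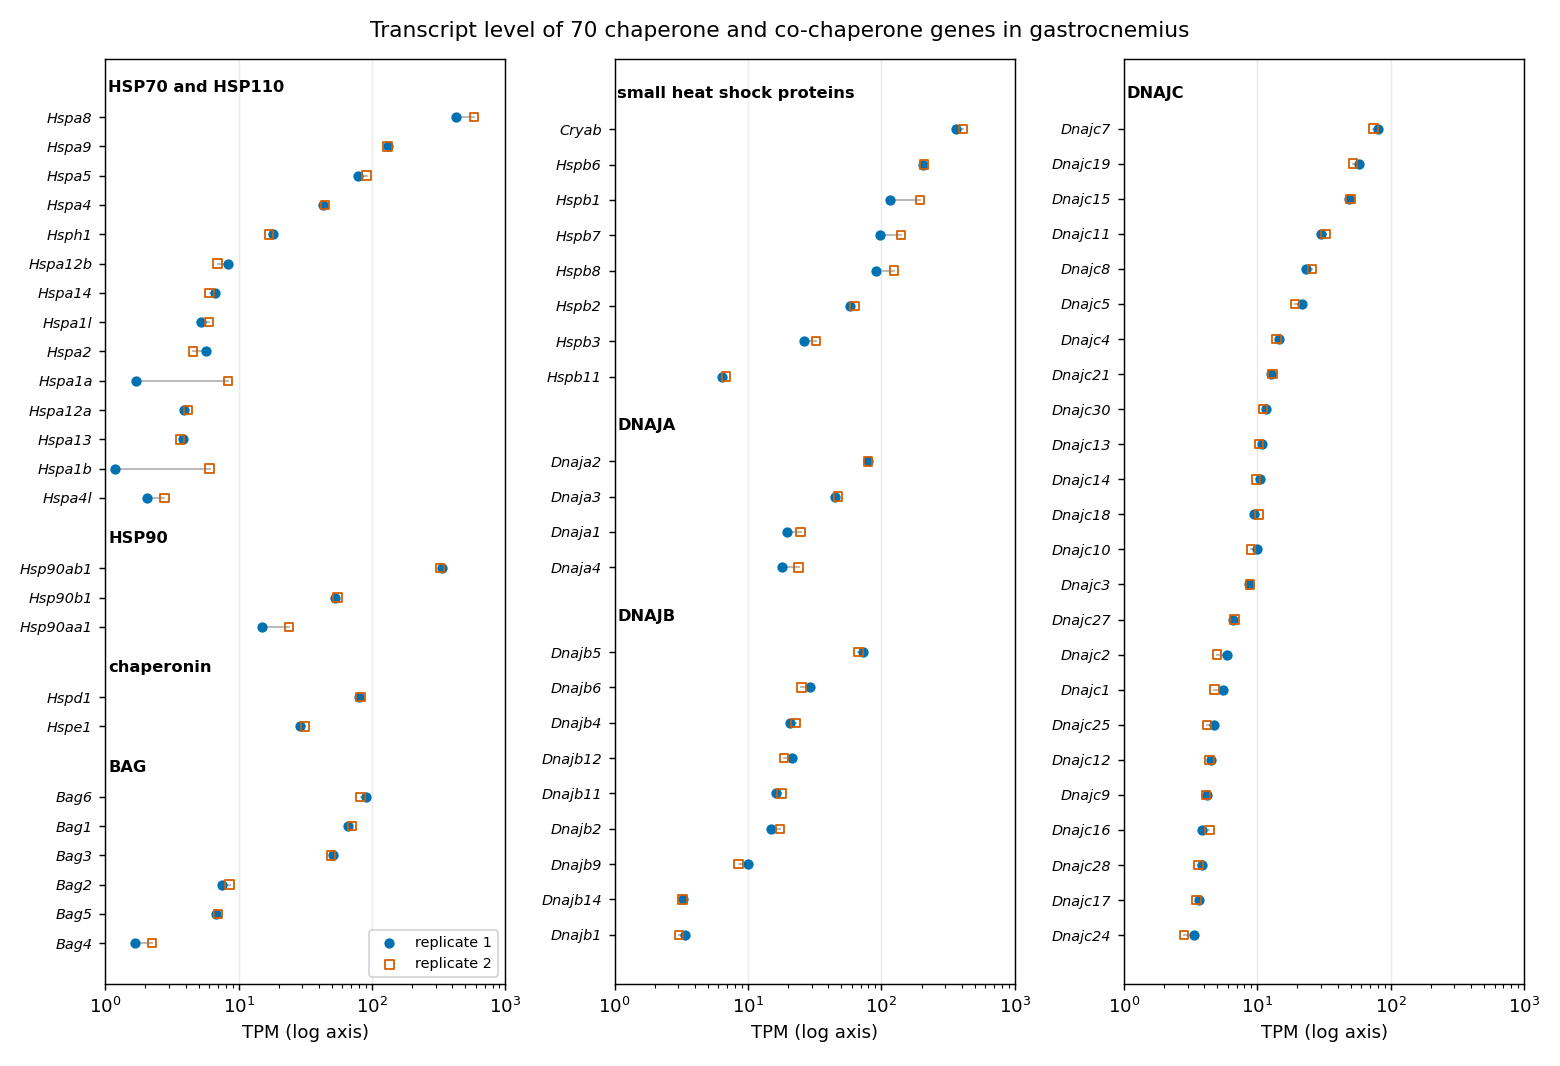
Level of the 70 members whose mean reached 1 TPM, grouped by family, with TPM on a log axis; filled circles are replicate 1 and open squares replicate 2, joined by a line. Hspa8 and Cryab are the highest members, and the widest gaps between the libraries are those of Hspa1a and Hspa1b.

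The 9 members below 1 TPM were Dnajb3, Dnajb7, Dnajb8, Dnajb13, Dnajc5b, Dnajc5g, Dnajc6, Dnajc22 and Hspb9. Of these, Dnajb8, Dnajc5b and Dnajc5g had 0 counts in both libraries, which allows up to 3 counts, or 0.0735 CPM in replicate 1 and 0.0804 CPM in replicate 2, CPM being counts scaled to the library total (counting error only). Dnajc6, the auxilin that uncoats clathrin vesicles in neurons, had 22 and 28 counts. The other 5 had at most 3 counts in each library.

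Under TMM scaling more members were called higher in replicate 2 than in replicate 1, and under scaling by added ERCC RNAs the balance was the other way. A two-sided exact binomial test on TMM-scaled expected counts, adjusted by Benjamini-Hochberg over 17245 genes, called 30 of the 71 members tested, or 42.3%, against 21.3% of all genes. Of the members, 3 were called higher in replicate 1, or 4.23%, against 10.7% of all genes. The other 27 were called higher in replicate 2, or 38.0%, against 10.6% of all genes. Members have high counts, so the deeper genes are the closer background: with at least 1000 counts over both libraries 27 of 50 members were called against 38.3% of genes, 2 members against 16.4% were higher in replicate 1, and 25 members against 21.9% were higher in replicate 2. Scaling by the added ERCC RNAs, which took 0.731% of counts in replicate 1 and 0.881% in replicate 2, moved the median difference of all genes by 0.29 on the log2 scale. It gave 49 called members against 52.5% of all genes, with 41 higher in replicate 1 against 50.8% and 8 higher in replicate 2 against 1.72%. Replicate 2 was the higher one for 90% of called members under TMM scaling, against 49.7% of all called genes. Under ERCC scaling it was the higher one for 16.3% of called members, against 3.27% of all called genes. The median log2 difference under TMM scaling was -0.09 over tested members and 0.01 over all genes tested. With at least 1000 counts it was -0.12 over members and -0.02 over all genes. Among genes averaging 1 TPM or more, the median under ERCC scaling was 0.19 over members and 0.25 over all genes. In each case the members lay further towards replicate 2 than all genes.

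Most of the called differences were small. The log2 difference of scaled counts was under 0.25 in size for 17 of the 30 called members. On the log2(TPM + 1) scale 2 of 70 members, Hspa1a and Hspa1b, were over 2-fold apart, against 1.1% of the 12156 genes whose mean reached 1 TPM. Over 1.5-fold apart were 4 of 70, with Hspb1 and Hsp90aa1 added, against 4.12% of these genes. The SD of this difference over all these genes was 0.30.

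**Figure D2:**
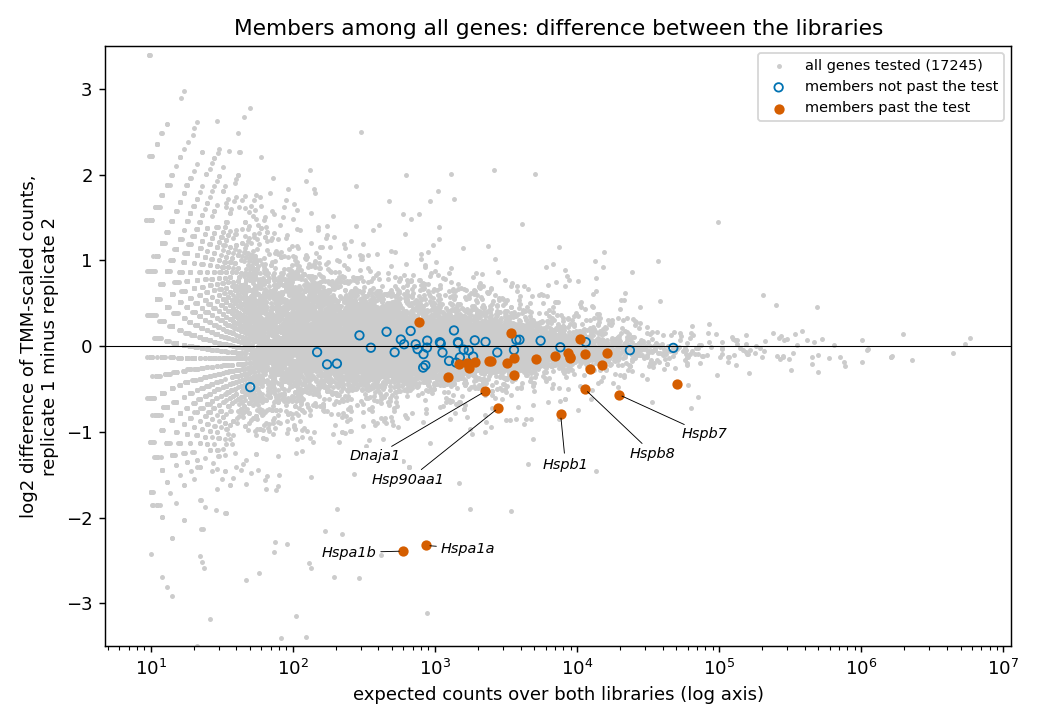
Log2 difference of TMM-scaled counts, replicate 1 minus replicate 2, against expected counts over both libraries on a log axis; grey points are all genes tested, open circles members that did not pass the exact binomial test and filled circles members that did. Hspa1a and Hspa1b lie below -2 and 5 further named members below -0.5 under this scaling, and 47 genes, none of them members, lie outside the plotted range of 3.5 on either side.

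The HSP70 and HSP110 family held 24.4 ± 1.70% of the members' TPM (SD, n = 2), and all 14 genes reached 1 TPM. Hspa8, the constitutive cytosolic HSP70, had 428 TPM in replicate 1 against 582 TPM in replicate 2, and alone made up 60.9 ± 4.02% of the family. Its log2 difference of scaled counts was -0.44 (exact binomial test, adjusted p = 9.2e-260). Hspa9, the mitochondrial HSP70, had 131.4 and 130.5 TPM. Its log2 difference of -0.05 lay at the threshold (exact binomial test, adjusted p = 0.0502): it passed with DESeq2 size factors and in the second quantification, and was called at 0.24 under ERCC scaling. Hspa5, the HSP70 of the endoplasmic reticulum also called BiP, had 78.8 and 91.1 TPM (log2 difference -0.27, exact binomial test, adjusted p = 1.5e-23), a sign that turned to 0.02 under ERCC scaling. Among the HSP110 genes, which exchange the nucleotide of HSP70, Hspa4 had 42.8 and 44.3 TPM and Hsph1 17.9 and 16.9 TPM. Under TMM scaling 6 of the 14 genes were called higher in replicate 2, against 10.6% of all genes, and 1 in replicate 1, against 10.7%. Under ERCC scaling 3 were called higher in replicate 2, against 1.72% of all genes, and 7 in replicate 1, against 50.8%. The 1 called higher in replicate 1 under TMM scaling was Hspa2, best known from testis, at 5.71 and 4.54 TPM. That call was lost with no minimum of counts. The remaining genes, Hspa12a, Hspa12b, Hspa13, Hspa14, Hspa1l and Hspa4l, lay between 2.41 and 7.61 TPM on average and were not called under TMM scaling.

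The inducible pair Hspa1a and Hspa1b stood apart from the constitutive genes. Both encode the cytosolic HSP70 that cells make under heat and other protein stress, and they lie on the minus strand at chr17:34969190-34972156 and chr17:34956436-34959238 (GRCm38, GENCODE M21). Hspa1a had 1.71 TPM in replicate 1 against 8.29 TPM in replicate 2, with 157 and 713 expected counts. Hspa1b had 1.19 and 6.06 TPM, with 103 and 491 counts. Replicate 2 was the higher library for both, and the quantifier's intervals did not overlap. The log2 differences of scaled counts were -2.33 for Hspa1a and -2.39 for Hspa1b (exact binomial test, adjusted p = 4.7e-96 and 1.9e-68), and they were -2.03 and -2.10 under ERCC scaling. The genes share reads, and their counts were split between loci, but their sum does not depend on that split between them: 2.90 TPM in replicate 1 against 14.35 TPM in replicate 2, a 4.95-fold higher level in replicate 2. Hspa8 exceeded this sum 148-fold in replicate 1 and 40.6-fold in replicate 2. Hspa1l, whose start lies 547 bases from that of Hspa1a on the other strand, had 5.24 and 6.01 TPM and was not called.

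The promoters of this pair and of 3 other members are shown because heat shock factor 1 binds repeats of a GAA unit in alternating orientation. Each window is from the RefSeq table for GRCm38.p6, runs from 250 bases before to 50 bases after an annotated start, and is written 5′ to 3′ on the strand of the gene, with capitals marking bases in matches to GAANNTTC or TTCNNGAA. The windows lie at chr17:34972107-34972406 (minus strand) for Hspa1a, chr17:34959189-34959488 (minus) for Hspa1b, chr5:135887669-135887968 (plus) for Hspb1, chr1:55087898-55088197 (plus) for Hspe1 and chr4:141420529-141420828 (plus) for Hspb7.
Hspa1a: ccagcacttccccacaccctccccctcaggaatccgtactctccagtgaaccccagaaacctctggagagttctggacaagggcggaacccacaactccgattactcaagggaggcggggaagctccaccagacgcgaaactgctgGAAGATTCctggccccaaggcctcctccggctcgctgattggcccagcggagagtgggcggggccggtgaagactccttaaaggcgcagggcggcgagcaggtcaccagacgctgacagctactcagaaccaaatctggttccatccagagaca
Hspa1b: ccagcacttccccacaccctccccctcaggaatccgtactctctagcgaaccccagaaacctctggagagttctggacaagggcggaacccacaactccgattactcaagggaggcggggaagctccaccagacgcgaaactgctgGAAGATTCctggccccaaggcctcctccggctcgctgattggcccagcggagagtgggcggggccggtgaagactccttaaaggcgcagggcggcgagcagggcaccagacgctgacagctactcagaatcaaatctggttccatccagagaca
Hspb1: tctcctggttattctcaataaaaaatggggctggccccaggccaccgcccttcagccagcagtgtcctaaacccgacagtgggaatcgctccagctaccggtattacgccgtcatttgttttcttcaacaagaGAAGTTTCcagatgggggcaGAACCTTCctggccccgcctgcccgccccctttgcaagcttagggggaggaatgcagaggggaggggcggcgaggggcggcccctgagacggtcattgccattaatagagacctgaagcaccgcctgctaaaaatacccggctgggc
Hspe1: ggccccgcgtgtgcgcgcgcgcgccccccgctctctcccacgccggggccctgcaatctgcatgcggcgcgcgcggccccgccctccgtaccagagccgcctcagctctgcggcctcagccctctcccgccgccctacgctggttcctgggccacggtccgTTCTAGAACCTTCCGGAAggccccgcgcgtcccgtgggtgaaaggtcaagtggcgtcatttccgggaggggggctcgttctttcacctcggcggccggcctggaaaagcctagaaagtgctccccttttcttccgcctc
Hspb7: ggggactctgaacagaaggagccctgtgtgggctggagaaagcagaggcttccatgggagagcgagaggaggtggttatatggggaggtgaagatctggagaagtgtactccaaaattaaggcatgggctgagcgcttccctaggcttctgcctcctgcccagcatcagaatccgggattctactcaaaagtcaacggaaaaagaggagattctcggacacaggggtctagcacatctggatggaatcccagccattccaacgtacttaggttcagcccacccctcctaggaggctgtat
The Hspa1a and Hspa1b windows were identical at 296 of 300 bases, or 98.7%, and each held 1 match at positions -104 to -97 from the start. Hspb1 held a match at -117 to -110 and another at -97 to -90. In Hspe1 the matches joined into an unbroken run from -89 to -72. The Hspb7 window held no match, which says only that these letters are not in this window.

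The HSP90 family held 11.9 ± 0.927% of the members' TPM (SD, n = 2). Hsp90ab1, the constitutive cytosolic form, had 332 TPM in replicate 1 against 323 TPM in replicate 2 and made up 81.7 ± 1.81% of the family. It was not called under TMM scaling, but was called at -0.05 in the second quantification and at 0.27 under ERCC scaling. Hsp90aa1, the stress-inducible cytosolic form, had 15.01 and 23.84 TPM. It was higher in replicate 2, with a log2 difference of -0.72 (exact binomial test, adjusted p = 2.5e-37) and of -0.43 under ERCC scaling. Hsp90b1, the form of the endoplasmic reticulum, had 53.2 and 54.9 TPM, with a called difference of -0.13 that turned to 0.16 under ERCC scaling. In the chaperonin of mitochondria, Hspd1, the barrel subunit HSP60, had 79.3 and 81.8 TPM, and Hspe1, its lid HSP10, had 28.7 and 31.3 TPM. Hspd1 was called at -0.10, a sign that turned to 0.19 under ERCC scaling, and Hspe1 was not called. The annotated starts of Hspd1 and Hspe1 lie 111 bases apart on opposite strands of chromosome 1, and the level of Hspd1 was 2.69 ± 0.104 times that of Hspe1 (SD, n = 2).

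The small heat shock proteins held the largest share of any of the 8 families in these libraries, 31.7 ± 1.95% of the members' TPM (SD, n = 2). Cryab, the alpha-B crystallin that binds desmin, had 363 TPM in replicate 1 against 410.3 TPM in replicate 2 and made up 36.2 ± 2.01% of the family. Hspb6, also called HSP20, had 205 and 209 TPM. Hspb1, the mouse HSP25, had 116 and 194 TPM. Hspb7, a filamin-binding form of heart and skeletal muscle, had 98.3 and 140.2 TPM, and Hspb8, the partner of Bag3, had 90.8 and 124 TPM. Hspb2 and Hspb3, which form a complex in muscle, had 58.6 and 62.8 TPM and 26.2 and 32.3 TPM. Of the 8 genes tested 7 were called higher in replicate 2 under TMM scaling, against 10.6% of all genes and 21.9% of those with at least 1000 counts. Under ERCC scaling 3 were called higher in replicate 2, against 1.72% of all genes, and 2 in replicate 1, against 50.8%. The 3 that held were Hspb1, Hspb7 and Hspb8, at -0.80, -0.57 and -0.50 on the log2 scale (exact binomial test, adjusted p = 2.8e-124, 9.8e-162 and 3.1e-74) and at -0.51, -0.27 and -0.21 under ERCC scaling. Cryab was called at -0.21 and Hspb6 at -0.08, and their differences turned to 0.08 and 0.21 under ERCC scaling. Cryab and Hspb2 overlap on opposite strands of chromosome 9, and Cryab was 6.36 ± 0.239 times the level of Hspb2 (SD, n = 2). Hspb11, better known as a protein of intraflagellar transport, had 6.37 and 6.83 TPM and was not called.

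J-domain proteins bring clients to HSP70. In the DNAJA family, Dnaja2 had 79.96 TPM in replicate 1 against 79.14 TPM in replicate 2, mitochondrial Dnaja3 had 45.2 and 47.3 TPM, Dnaja1 had 19.5 and 24.8 TPM, and Dnaja4 had 17.98 and 23.94 TPM. All 4 were called higher in replicate 2 under TMM scaling, against 10.6% of all genes and 21.9% of those with at least 1000 counts. Under ERCC scaling Dnaja1 alone was, against 1.72% of all genes. Under it 2 were called higher in replicate 1, against 50.8% of all genes. Dnaja1 differed by -0.53 (exact binomial test, adjusted p = 1.8e-16) and by -0.24 under ERCC scaling. For Dnaja2 the called count difference of -0.09 went against its TPM, and the same held for Hsph1. In the DNAJB family, Dnajb5 led with 72.6 and 67.2 TPM, Dnajb6, mutated in a human limb-girdle muscular dystrophy, had 29.1 and 25.1 TPM, and Dnajb4 had 20.5 and 22.8 TPM. Of 9 DNAJB genes tested, Dnajb5 and Dnajb12 were called higher in replicate 1 under TMM scaling, against 10.7% of all genes. Dnajb2, Dnajb4, Dnajb11 and Dnajb14 were called the other way, against 10.6% of all genes. Under ERCC scaling 5 DNAJB genes were called higher in replicate 1, against 50.8% of all genes, and 0 in replicate 2. Dnajb1, the J-domain partner of inducible HSP70, had 3.35 and 3.05 TPM and was not called under TMM scaling.

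The 28 DNAJC genes are the most varied family, and 24 of them reached 1 TPM in both libraries. Dnajc7, which binds both HSP70 and HSP90, had 80.6 TPM in replicate 1 against 74.1 TPM in replicate 2. Dnajc19, a subunit of the mitochondrial import motor, had 57.5 and 52.0 TPM, and the related Dnajc15 had 49.0 and 50.1 TPM. No gene of the family made up more than 19.8 ± 0.725% of its TPM (SD, n = 2). Under TMM scaling 2 of 25 genes tested were called, against 21.3% of all genes. These were Dnajc8, found in spliceosomes, and Dnajc11 of the mitochondrial outer membrane, both higher in replicate 2. Under ERCC scaling 18 of the 25 were called higher in replicate 1, against 50.8% of all genes, and 0 in replicate 2. Dnajc5, the cysteine string protein of synaptic vesicles, had 21.6 and 19.2 TPM. Dnajc3 and Dnajc10 of the endoplasmic reticulum had 8.72 and 8.84 TPM and 9.88 and 8.94 TPM.

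BAG proteins release the nucleotide from HSP70. Bag6, which guards newly made membrane proteins, had 90.2 TPM in replicate 1 against 82.2 TPM in replicate 2. Bag1 had 66.5 and 71.0 TPM, and it was the 1 gene of 6 called under TMM scaling, against 21.3% of all genes. Its log2 difference of -0.15 (exact binomial test, adjusted p = 0.00145) turned to 0.14 under ERCC scaling. Bag3, which works with Hspb8 on damaged filamin, had 50.6 and 49.2 TPM and was not called under TMM scaling. Bag2, Bag4 and Bag5 lay between 1.97 and 8.03 TPM on average.

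With 5 alternatives of scaling, count filter and quantification, 9 of the 30 called members kept their call and direction. The matching share over all called genes was not computed. ERCC scaling moves all genes by 0.29, so a call higher in replicate 2 could be kept only where its TMM difference exceeded that size. Of the 9 members, 8 were higher in replicate 2: Hspa1a, Hspa1b, Hspa8, Hsp90aa1, Hspb1, Hspb7, Hspb8 and Dnaja1. The ninth, Dnajb5, was higher in replicate 1.

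**Figure D3:**
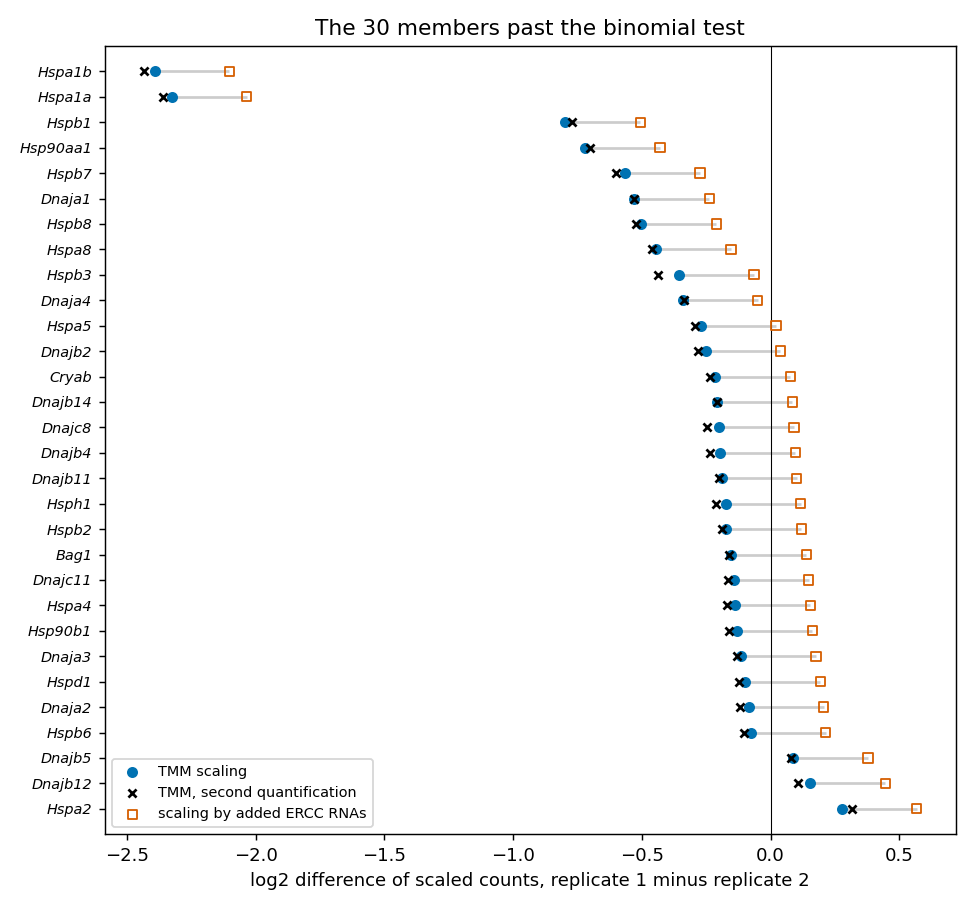
Log2 difference of scaled counts, replicate 1 minus replicate 2, for the 30 members past the exact binomial test, under TMM scaling (circles), TMM scaling of the second quantification (crosses) and scaling by added ERCC RNAs (squares). ERCC scaling moves every member to the right by 0.29, and 10 of the 27 members below 0 under TMM scaling stay below it.

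A promoter window was in the RefSeq table for 63 members. A pair of units, GAANNTTC or TTCNNGAA (each reads the same on both strands, and overlapping matches were counted), was found for 17 of these, or 27.0%, against 17.0% of 27025 genes. A run of 3 units at the same spacing was found for 4 members, Hspd1, Hspe1, Dnajb6 and Hsph1, or 6.35%, against 0.662% of genes. Hspd1 and Hspe1 lie on opposite strands, and their windows overlap over the same run. Of the members called higher in replicate 2 under TMM scaling, 22 had a window and 11 of these held a pair. Of the members called higher in replicate 1, 3 had a window and 0 held a pair. Among tested members that were not called, 5 of 32 held a pair. The share with a pair was not computed over all called or uncalled genes, so these counts have no background. Both Hspa1a and Hspa1b, whose windows are nearly identical, are among the 11. Whether pairs and calls are linked was not tested. Bag3 and Hspe1 hold a pair and were not called, while Hspb7 was called and holds none. Hspa8, Hsp90aa1, Hsp90ab1 and Cryab were among the 16 members with no window in the table.

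**Figure D4:**
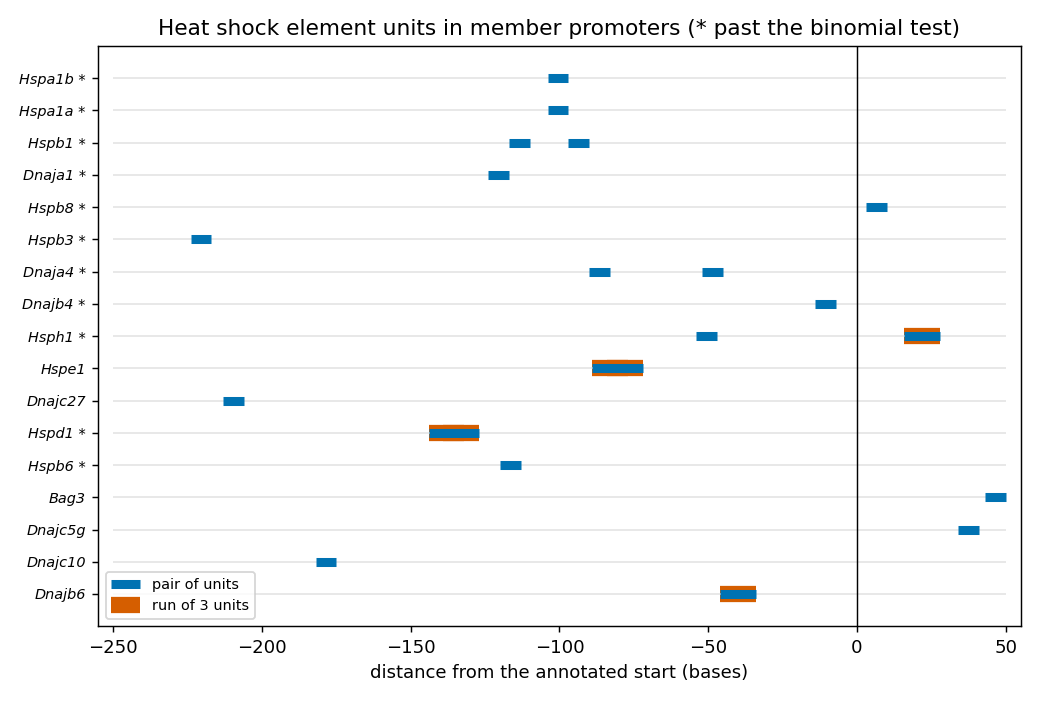
Position of heat shock element units in the windows of the 17 members that hold a pair, in bases from the annotated start (line at 0), sorted by the difference between the libraries; narrow bars are pairs, wide bars runs of 3 units, and an asterisk marks members past the exact binomial test. For genes with several windows the one with the most matches is drawn, and Hspa1a and Hspa1b share the same position.

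Several abundant members had much of their signal on transcripts that do not encode the protein. Over the 70 members at 1 TPM the median share of protein-coding transcripts in a gene's TPM was 96.3%, and 47 members had at least 90%. For Cryab the retained-intron transcript Cryab-204 took 46.0 ± 2.60% and the coding transcript Cryab-205 took 45.8 ± 2.90% (SD, n = 2). In the second quantification they took 31.6% and 31.1%, and the coding share of Cryab was 68.4% against 54.0% in the first. Retained-intron transcripts also took 44.8 ± 1.65% of Dnaja2 and 30.1 ± 0.706% of Hspa4 (SD, n = 2), and 55.9% and 49.8% in the second quantification, made directly from the reads. The share was under 50% for Dnajc15, at 2.70%, and Dnajc19, at 38.0%. The second quantification gave Dnajc19 a coding share of 100%, and in it 5 members were under 50%: Dnajc15, Dnaja2, Dnajc11, Dnajc13 and Hspa4. It also divided Hspa8 differently: Hspa8-201 took 30.2% in the first and 73.0% in the second, and Hspa8-202 took 42.4% and 0.467%. The leading transcript was the same in both quantifications for 57 of the 70 members.

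**Figure D5:**
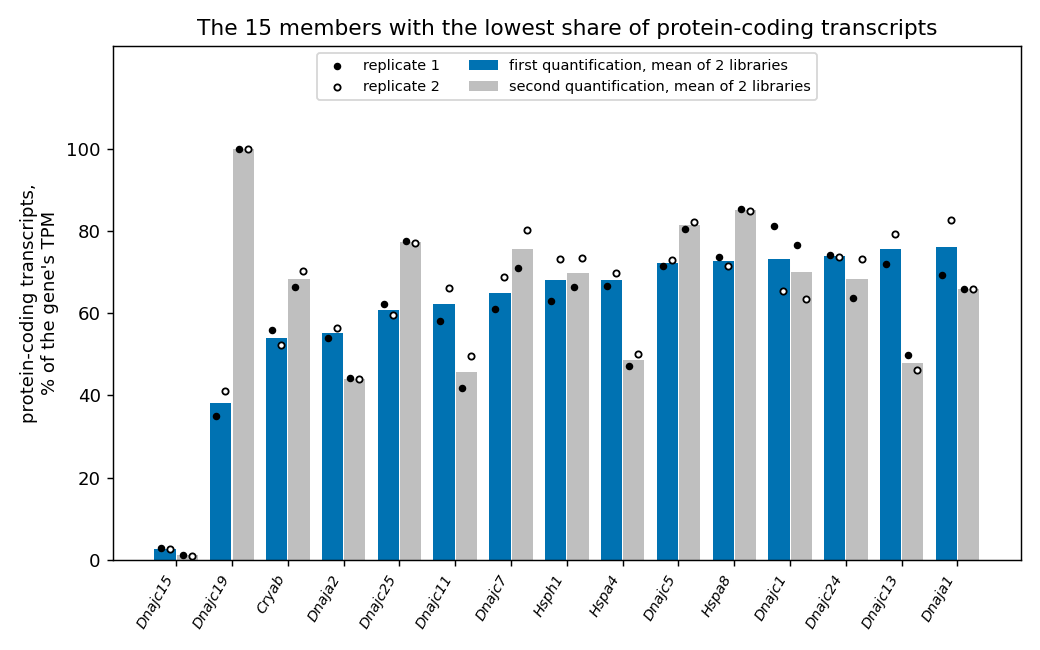
Share of protein-coding transcripts in the TPM of the 15 members where it was lowest, in the first (blue) and second (grey) quantification; bars are means of 2 libraries from 0, filled points replicate 1 and open points replicate 2. Dnajc15 is lowest in both, and Dnajc19 differs most between the quantifications.

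Other genes of the same pathways were read from lists chosen for their roles. All 22 HSP90 co-chaperones reached 1 TPM, led by Itgb1bp2 (melusin), with 207 TPM in replicate 1 against 209.8 TPM in replicate 2, the myosin-folding Smyd1, with 103 and 109 TPM, and the kinase co-chaperone Cdc37, with 62.2 and 63.4 TPM. In this list 6 genes were called in the direction of replicate 2 and 1 in that of replicate 1. The 1 was Fkbp5, an immunophilin induced by glucocorticoids, which had 47.1 and 10.6 TPM. It was the only gene of that list over 2-fold apart. Of the heat shock factor genes and their binding proteins 5 were tested (Hsf1, Hsf2, Hsf4, Hsbp1 and Hsbp1l1), and none was called. Hsbp1, a binding protein of heat shock factor 1, had 71.5 and 70.4 TPM, Hsf1, the main activator of heat shock genes, had 15.7 and 16.5 TPM, and Hsf2 had 12.2 and 13.0 TPM. Over all genes tested 10.7% were called higher in replicate 1 and 10.6% the other way, or 16.4% and 21.9% of those with at least 1000 counts, and the lists are small. Calls higher in replicate 1 and in replicate 2 numbered 0 and 1 of 11 HSP70 cofactors, 0 and 3 of 8 tested subunits of the TRiC chaperonin, 0 and 1 of 6 prefoldin subunits, 2 and 5 of 16 genes of the endoplasmic reticulum, and 1 and 1 of 8 genes of mitochondrial proteostasis. Of 7 partners of Bag3, 3 were called in each direction, and Flnc, the filamin of muscle, had 120.4 and 169 TPM. Among 14 stress-induced genes that are not chaperones 6 were called in each direction. Of these, Atf3 had 1.88 and 15.6 TPM, Rrad 1.69 and 8.70 TPM and Csrp3 30.7 and 112 TPM, all higher in replicate 2. Ddit4 had 31.9 and 13.7 TPM and Gadd45b 13.0 and 4.97 TPM, both higher in replicate 1. These counts are under TMM scaling.

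The libraries held 40825601 expected counts in replicate 1 and 37329025 in replicate 2. The 5 muscle fibre markers summed to 91128.5 and 97859.4 TPM. Markers of some other cells moved with the members: the sum of 3 adipocyte genes was 2.26 and 14.6 TPM (1 of 3 at 1 TPM in both libraries), of 3 Schwann cell genes 56.6 and 83.9 TPM, and of 3 erythroid genes 977 and 1347 TPM, whereas 3 tendon genes summed to 133 and 87.5 TPM. Summed macrophage markers were 19.7 and 19.9 TPM, and of 3 heart markers Nppa and Myl7 were at 0 while Myh6 had 54.6 and 49.0 TPM. Their part in the differences between the libraries was not tested, and in bulk RNA fewer cells of a type and less RNA per cell cannot be told apart.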

How the data were processed

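The libraries were made from 300 ng of total RNA with a kit for animal tissue and ERCC RNAs for stranded, ribosome-reduced libraries, per the labels. The authors quantified reads against mm10 with GENCODE M21, per the labels and the deposited description. Aligner and quantifier names: not given in the sources used here. Deposited gene and transcript tables hold expected counts, not normalised, and TPM, which the authors had scaled to a constant total; the bounds of the quantifier's interval of the TPM were also used. A second deposited transcript table of estimated counts and TPM, made by the authors directly from the reads, was summed per gene. Alleles of the hybrids were not separated. Entries with a number in place of a gene, 3 and 1 counts in replicates 1 and 2, were left out of library sizes and tests, as were added RNAs.

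Members and lists were chosen with earlier results of these data known. Expected counts were rounded. With 1 group no model contrast could be fitted, so the libraries were compared with a two-sided exact binomial test (scipy 1.17.1) given TMM-scaled library sizes (edgeR 4.0.16, R 4.3.3), for genes with at least 10 counts, adjusted by Benjamini-Hochberg at 0.05 over all genes tested. The test covers counting error only. It was tried on simulated counts that held counting error alone, so that trial cannot show how the test behaves with further spread between libraries. A second rule took differences over 2-fold on log2(TPM + 1) for genes averaging 1 TPM or more. The edgeR common dispersion gave a coefficient of variation of 0.119. A count was called split when it was over 0.005 from a whole number, which held for 18 members, Hspa8, Hspa1a, Hspa1b, Hspb1 and Hsp90aa1 among them. All members may be named; values per library are given for the 3 highest of each family, members over 2-fold apart, and the 3 highest of each list where described; values of other members were added after they had been seen. DESeq2 1.42.0 size factors, library totals, ERCC totals, other pseudocounts and filters, and the second quantification were alternatives.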

Additional observations from a re-analysis of the deposited data

How the results depend on the processing

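The 2 libraries limit every difference to a description of these libraries, and genes with shared reads depend on how counts were split. No paired analysis was possible because the series has 1 group. Scaling by added ERCC RNAs had the largest effect on the calls. It called 49 of 71 members tested and 76 genes of the other lists, against 52.5% of all genes. Of the members 41 were higher in replicate 1, against 50.8% of all genes, and 8 in replicate 2, against 1.72%. Under ERCC scaling 17 of the 27 members called higher in replicate 2 under TMM scaling changed sign. Among the 25 named members, those that changed sign and were called in either fit went to 0.14 for Bag1, 0.28 for Bag3, 0.076 for Cryab, 0.21 for Dnaja2, 0.18 for Dnaja3, 0.10 for Dnajb4, 0.24 for Dnajc15, 0.27 for Hsp90ab1, 0.16 for Hsp90b1, 0.021 for Hspa5, 0.24 for Hspa9, 0.21 for Hspb6 and 0.19 for Hspd1. The construction of this scaling moves all genes alike. The second quantification gave a median of 19.2 TPM over the members. The SD of the log2 difference over all genes was 0.45 with a pseudocount of 0.1, 0.19 with a pseudocount of 5 and 0.17 with no filter on low values. Members over 2-fold apart numbered 0 with a pseudocount of 5 and 1 when means of 5 TPM were required. The filter drops Hspa1b, whose mean was 3.625 TPM, and keeps Hspa1a, whose mean was 5 TPM. At such low levels a larger pseudocount shrinks the ratio between the libraries by construction. The cause of the other shifts was not tested. DESeq2 size factors, library totals, no count minimum and the second quantification left 96 of 100 calls of 25 named members on the same side of the threshold.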
